A study of Homo sapiens with 6 samples.

Results

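The genes described here are 9 genes of melanin synthesis and its organelle, DCT, TYR, TYRP1, OCA2, SLC45A2, PMEL, MLANA, GPNMB and MITF, out of 60664 genes counted in D283 Med cells. They were taken by symbol, and all 9 were found. They were chosen because DCT was much lower in KD, so the KD and SCR values of the 9 genes are given as a description, with no p printed. Which of them passed a threshold of adjusted p is named later, and nothing is read from it. D283 Med is an established human medulloblastoma line of the Group 3 subtype with an amplified MYC gene. Polyadenylated RNA was sequenced in 3 libraries labelled KD, from cells transfected with LNA GapmeRs to lower the long non-coding RNA lncMB3, and in 3 control libraries labelled SCR, also transfected with LNA GapmeRs. A GapmeR is an antisense oligonucleotide that directs RNase H to a transcript. Both groups share the cell line and the transfection, and all 6 libraries come from 1 line. The labels do not say that libraries of a group were separate cultures, so their spread may be technical. The level of lncMB3 itself was not analysed here, so directions rest on the group labels.

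Melanin is made in melanosomes, lysosome-related organelles of melanocytes and of the retinal pigment epithelium. Tyrosinase (TYR) starts synthesis by oxidising tyrosine to dopaquinone, dopachrome tautomerase (DCT) converts dopachrome to a carboxylated indole, and TYRP1, an enzyme of the same family, acts after it in mice. PMEL forms the fibrils on which melanin is laid down, MLANA aids their formation, OCA2 and SLC45A2 set the pH inside the organelle, and MITF is the transcription factor that activates most of these genes through CATGTG sites. GPNMB, a membrane glycoprotein related to PMEL, is another MITF target and is also made in macrophages and in cells under lysosomal stress. In mice, Dct is also active in the developing forebrain and the eye.

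The sequences before the starts of the 3 enzyme genes and of GPNMB are shown because they hold letters of the kind that MITF and the OTX/CRX factors are known to bind. They run 5′ to 3′ on the strand of each gene and end at the base before its start (RefSeq, GRCh38.p14). Capitals mark CATGTG, the core of the M-box bound by MITF, and TAATCC, the core bound by OTX2 and CRX, each also in reverse complement (CACATG and GGATTA). Of the 2 DCT starts in RefSeq, the sequence is that of the one where the GENCODE 29 gene also begins, chr13:94479683-94479932 on the minus strand. Those of TYR (chr11:89177625-89177874), TYRP1 (chr9:12693135-12693384) and GPNMB (chr7:23246525-23246774) are on the plus strand. These RefSeq starts lie inside the GENCODE 29 genes, which begin at 89177452 (TYR), 12685439 (TYRP1) and 23235967 (GPNMB).
DCT: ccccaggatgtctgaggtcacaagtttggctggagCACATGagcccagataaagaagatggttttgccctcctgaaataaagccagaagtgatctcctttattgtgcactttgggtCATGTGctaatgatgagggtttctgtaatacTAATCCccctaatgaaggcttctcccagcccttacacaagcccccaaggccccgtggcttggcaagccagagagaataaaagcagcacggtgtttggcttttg
TYR: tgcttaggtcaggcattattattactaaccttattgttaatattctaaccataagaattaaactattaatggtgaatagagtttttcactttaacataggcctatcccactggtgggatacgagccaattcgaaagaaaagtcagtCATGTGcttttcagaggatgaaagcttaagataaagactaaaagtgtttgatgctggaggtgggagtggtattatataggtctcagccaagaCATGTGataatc
TYRP1: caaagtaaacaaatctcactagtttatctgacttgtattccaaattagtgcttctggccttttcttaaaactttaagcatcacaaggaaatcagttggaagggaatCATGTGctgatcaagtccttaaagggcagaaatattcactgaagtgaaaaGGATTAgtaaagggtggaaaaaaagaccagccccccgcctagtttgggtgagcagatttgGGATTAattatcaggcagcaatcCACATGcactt
GPNMB: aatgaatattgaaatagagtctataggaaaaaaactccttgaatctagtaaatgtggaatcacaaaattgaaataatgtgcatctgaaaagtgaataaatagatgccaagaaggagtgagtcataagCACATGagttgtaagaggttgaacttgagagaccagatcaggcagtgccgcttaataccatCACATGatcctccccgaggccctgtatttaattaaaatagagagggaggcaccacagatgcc

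RefSeq windows, each of 250 bases before and 50 after a start, were found for 7 of the 9 genes, with 10 windows in all. CATGTG was present 2 times in the windows of DCT (the start shown), TYR, TYRP1 and GPNMB, and 1 time in that of OCA2. The windows of MLANA, of the 3 MITF starts and of the other DCT start held none. Over all 35116 windows of the same length, 11.1% held at least 1 match and 1.46% at least 2, and matches that overlapped were counted apart. The 3 enzyme genes each held a match with nearly the same neighbouring letters, GTCATGTGCT in DCT, 134 bases before its start, GTCATGTGCT in TYR, 104 bases before its start, and ATCATGTGCT in TYRP1, 144 bases before. TAATCC was present 1 time in the DCT window, 103 bases before the start, and 2 times in that of TYRP1, in 6.36% of all windows, and in none of the others. The E-box CACGTG, which is its own reverse complement, was in none of the 10 windows and in 7.26% of all. A match is a description of the letters and not a measured binding site.

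Libraries held 7765826 to 19989654 counts in KD and 17072573 to 20035834 in SCR, with KD library 1 the shallowest and least precise. On the first principal component, which held 53.3% of the variance, KD libraries lay at 20.8 to 31.7 and SCR libraries at -35.4 to -14.5, and SCR library 1 was the nearest to KD. Levels are given in CPM, the counts of a gene scaled to a common library size after TMM adjustment. Levels of the 8 Group 3 markers differed widely, with MYC at 1203 ± 74.8 CPM in KD and 1177 ± 90.5 CPM in SCR (SD, n = 3 each) and OTX2, a photoreceptor-lineage factor, at 729 ± 11.2 CPM in KD and 885 ± 51.5 CPM in SCR, down to NRL at 4.29 CPM in KD and 6.60 CPM in SCR. Melanocyte markers were low. The summed level of 12 of them ran from 18.6 to 23.3 CPM in KD and from 20.8 to 23.2 CPM in SCR, and most of it was MITF and KIT. Of the defining melanocyte genes, PAX3, EDNRB and MLANA had 0 counts in all 6 libraries, and SOX10 had 5 counts over the KD libraries and 0 over SCR. The 9 genes are thus named for their known function, and most defining melanocyte genes were absent or near 0 here. In bulk RNA, fewer cells of a type and less RNA per cell cannot be told apart.

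DCT stood apart from its family in level. The gene (ENSG00000080166.16) had 29.3, 33.7 and 30.1 CPM in KD libraries 1 to 3, against 90.8, 114 and 104 CPM in SCR libraries 1 to 3. The lowest SCR library lay far above the highest KD library, and the groups did not overlap. The mean was 31.0 ± 2.38 CPM in KD and 103 ± 11.5 CPM in SCR (SD, n = 3 each), which is 3.30-fold lower in KD (log2 change -1.72 ± 0.10, SE, 95% interval -1.94 to -1.50). Among 14673 genes tested, 58 had a larger fall, and of the 10990 genes averaging 5 CPM or more, 9 had one. Per kilobase of exon, 21.0% of tested genes with a known length had a higher level than DCT in SCR, against 50.2% in KD.

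The other enzymes of the family were barely detected in either group. TYR (chr11:89177452-89295759, plus strand, GENCODE 29), which catalyses the first step, had 1, 7 and 4 counts in KD and 4, 10 and 3 counts in SCR. TYRP1 (chr9:12685439-12710290, plus strand) had 3, 5 and 7 counts in KD and 4, 8 and 11 counts in SCR. Both overlapped between the groups and failed the filter on low counts. The ratio of summed counts, KD over SCR and scaled for depth, was 0.850 for TYR (exact 95% interval 0.370 to 1.89) and 0.785 for TYRP1 (0.381 to 1.57). These intervals cover counting error only and leave out the spread between libraries. Both intervals lie above the same ratio for DCT, 0.304 (exact 95% interval 0.287 to 0.322). With so few counts, whether TYR and TYRP1 fell less than DCT beyond the spread between libraries was not tested. Per kilobase of exon, DCT made up 95.9% to 96.3% of the summed level of the 3 enzymes in KD and 98.3% to 98.8% in SCR. TYR, whose product feeds the step that DCT catalyses, had 12 counts over the KD libraries and 17 over SCR, against 1450 over KD and 5739 over SCR for DCT.

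The pH regulators differed in level. OCA2 (chr15:27754875-28099358, minus strand), a melanosomal anion transport protein, had 9.63, 7.51 and 7.87 CPM in KD, against 10.2, 12.5 and 12.9 CPM in SCR. The groups did not overlap, but KD library 1 and SCR library 1 lay close together. OCA2 averaged 8.34 ± 1.13 CPM in KD and 11.9 ± 1.44 CPM in SCR (SD, n = 3 each) and was 1.46-fold lower in KD (log2 change -0.55 ± 0.14, SE, 95% interval -0.85 to -0.24). SLC45A2 (chr5:33944616-33984730, minus strand), a transporter of the same organelle, had 4, 9 and 8 counts in KD and 8, 15 and 9 counts in SCR, too few to be tested, with a ratio of summed counts of 0.790 (exact 95% interval 0.433 to 1.41).

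The structural proteins of the melanosome were near or at 0. PMEL (chr12:55954105-55973317, minus strand) had 0.650, 0.782 and 0.678 CPM in KD, against 0.410, 1.27 and 1.29 CPM in SCR. SCR library 1 lay below every KD library and the other 2 SCR libraries above them, so the groups overlapped. The log2 change was -0.48 ± 0.42 (SE, 95% interval -1.37 to 0.40). It was -0.83 without SCR library 1, -0.26 without SCR library 2 and -0.27 without SCR library 3, and PMEL was called in none of these. The PMEL gene overlaps CDK2 on the opposite strand, and CDK2 had 3043 counts over KD and 3453 over SCR, where PMEL had 33 over KD and 56 over SCR. Whether reads were counted by strand is not stated, so PMEL is uncertain. MLANA (chr9:5890802-5910606, plus strand), which lies inside the span of KIAA2026 on the other strand, had 0 counts in every library, which allows up to 0.0652 CPM over the 3 KD libraries and 0.0541 CPM over the 3 SCR libraries.

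GPNMB (chr7:23235967-23275108, plus strand) went the other way from DCT. It had 51.8, 42.6 and 53.7 CPM in KD, against 37.4, 32.2 and 32.8 CPM in SCR, with every KD library above every SCR library. The mean was 49.3 ± 5.95 CPM in KD and 34.1 ± 2.84 CPM in SCR (SD, n = 3 each), 1.44-fold higher in KD (log2 change 0.53 ± 0.10, SE, 95% interval 0.30 to 0.75). MITF (chr3:69739435-69968337, plus strand) had 14.4, 11.4 and 13.4 CPM in KD, against 12.8, 12.1 and 13.2 CPM in SCR. These overlapped, with both the highest and the lowest library in KD. MITF averaged 13.1 ± 1.57 CPM in KD and 12.7 ± 0.560 CPM in SCR (log2 change 0.03 ± 0.12, SE, 95% interval -0.23 to 0.28), and the sign of this small value turned with upper-quartile scaling (-0.03). Counts are per gene, so the melanocyte, pigment-epithelium and ubiquitous isoforms of MITF were not told apart.

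Of the 9 genes, 5 passed the filter on low counts, and 3 of these 5 were called by edgeR's test at an adjusted p under 0.05, DCT and OCA2 lower and GPNMB higher, where 31.7% of all tested genes were called. In the same 3 genes the groups did not overlap, as in 46.0% of all tested genes. The genes were chosen on this contrast, so nothing is read from these shares.

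**Figure D1:**
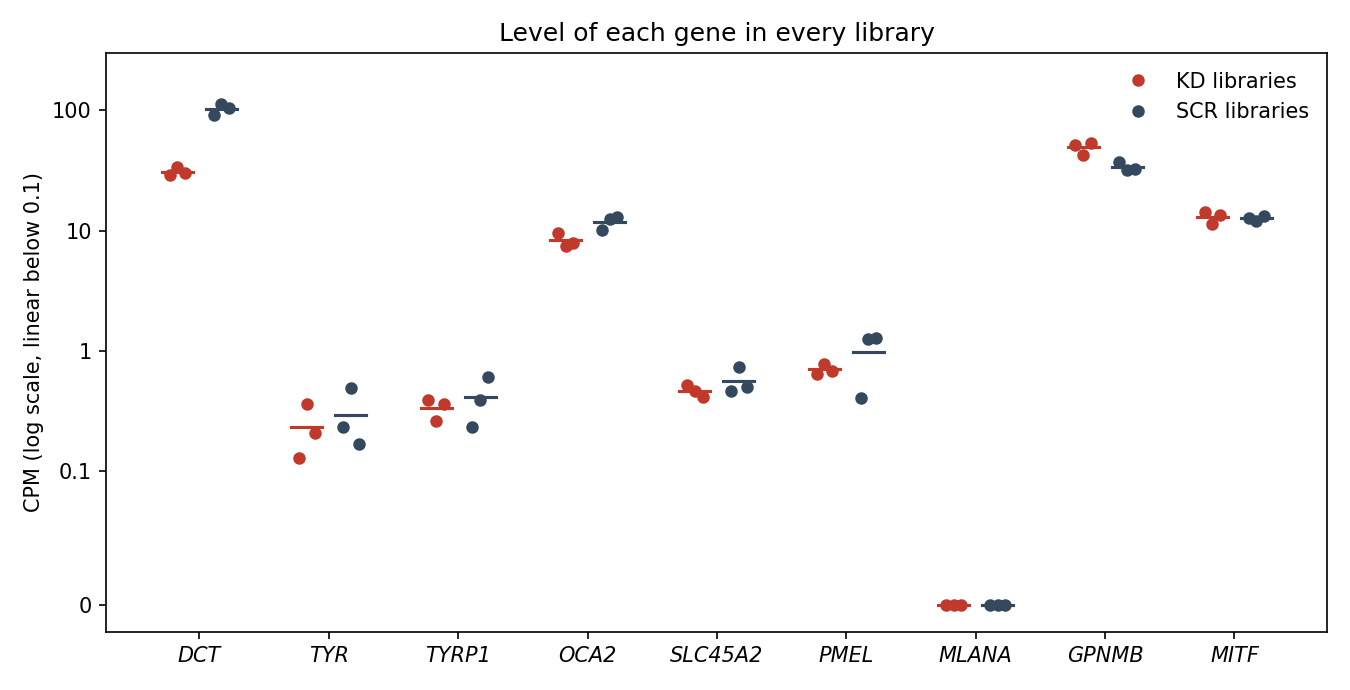
Level of each of the 9 genes in CPM (vertical axis, log scale, linear below 0.1) in 3 KD libraries (red) and 3 SCR libraries (dark), each point 1 library and each bar the group mean. DCT lies near 31.0 CPM in KD and 103 CPM in SCR, GPNMB is higher in KD, MITF overlaps, and TYR, TYRP1, SLC45A2 and PMEL stay at about 1 CPM or below.

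Compared per kilobase of exon (RPKM, from the summed exon length of each gene), the order of the 9 genes differed between the groups at its top. In KD, GPNMB stood first at 8.17 ± 0.985 RPKM and DCT second at 4.12 ± 0.315 RPKM (SD, n = 3). In SCR, DCT stood first at 13.6 ± 1.53 RPKM and GPNMB second at 5.65 ± 0.470 RPKM. The level of DCT relative to that of GPNMB was 0.453, 0.635 and 0.449 in KD libraries 1 to 3 and 1.94, 2.83 and 2.54 in SCR libraries 1 to 3. OCA2 came next in both groups, at 2.53 ± 0.343 RPKM in KD and 3.60 ± 0.436 RPKM in SCR, followed by MITF at 1.82 ± 0.218 RPKM in KD and 1.77 ± 0.0780 RPKM in SCR. None of these 4 genes overlapped its neighbour in the order within a group. Below them PMEL, SLC45A2, TYRP1 and TYR ran from 0.180 to 0.0778 RPKM in KD and from 0.253 to 0.0985 RPKM in SCR. Neighbours among these low genes overlapped in SCR, and in KD only TYRP1 and TYR did.

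**Figure D2:**
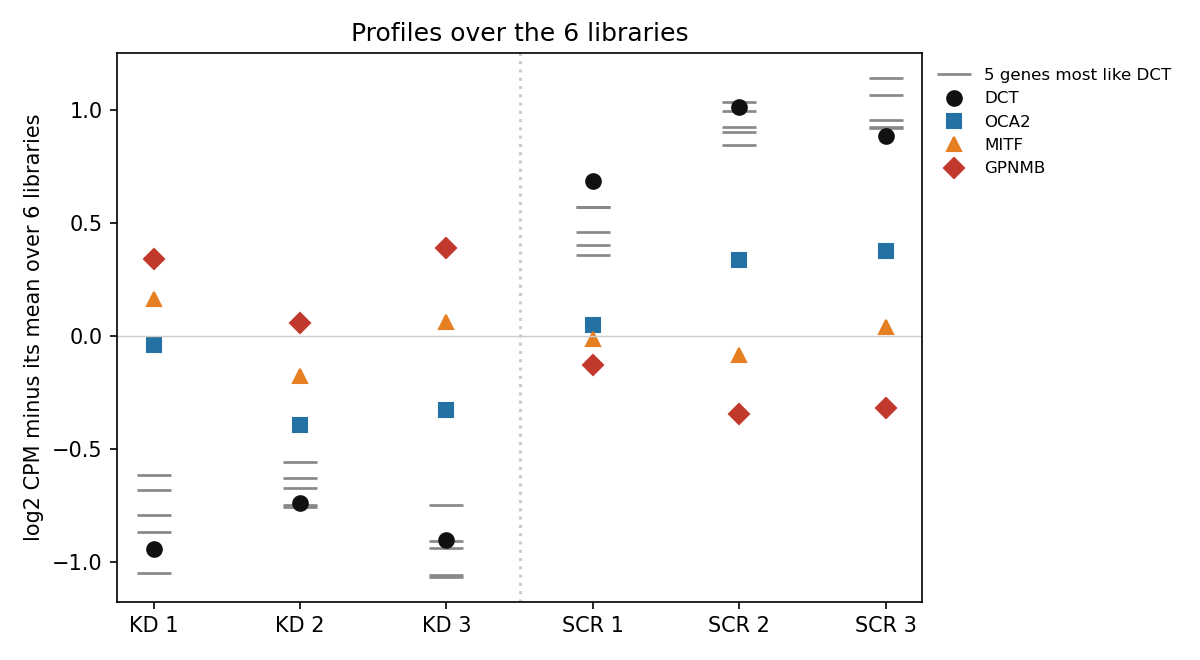
log2 CPM of each gene minus its mean over the 6 libraries (vertical axis), for KD libraries 1 to 3 and SCR libraries 1 to 3 (horizontal axis). Grey bars are the 5 genes most like DCT, which lie below 0 in KD and above 0 in SCR as DCT does, OCA2 moves the same way by less, MITF stays near 0 and GPNMB lies above 0 in KD and below it in SCR.

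The genes whose profile over the 6 libraries was nearest to that of DCT were not pigment genes. Likeness was the Euclidean distance between log2 CPM profiles, each centred on its own mean, over 10984 other genes that averaged 5 CPM or more and had a symbol, which 5 did not. Because KD and SCR differ most along it, genes near DCT are those that fell by a like amount. The nearest was GUCA1A, a guanylate cyclase activator of photoreceptors (distance 0.342), with 11.4, 16.1 and 11.3 CPM in KD and 35.5, 48.9 and 49.96 CPM in SCR. NHSL1, a regulator of the actin network (0.352), C17orf113 (0.372), TMEM255A, a membrane protein (0.425), and GNB3, the cone transducin beta subunit (0.453), followed, at 3.41-fold (GUCA1A), 3.09-fold (NHSL1), 2.97-fold (C17orf113), 3.06-fold (TMEM255A) and 3.10-fold (GNB3) lower in KD. GNB3 had 26.8, 31.6 and 26.1 CPM in KD and 62.8, 91.7 and 108 CPM in SCR. In all 5, as in DCT, SCR library 1 was the lowest of the SCR libraries, a likeness that the choice by distance favours. Among the 9 genes OCA2 ranked 871 in this order, MITF 5824 and GPNMB 10492.

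Genes around the 9 were measured through lists of the organelle and its transport, of pigment-cell regulators, of cell type and tumour markers and of neighbours of DCT, which held 96 genes other than the 9, with 76 tested. Of these 76, 19 fell and 5 rose at an adjusted p under 0.05 (edgeR quasi-likelihood test, Benjamini-Hochberg over 14673 genes), where 15.9% of all tested genes were lower and 15.9% higher. The 19 include TRPM1 and BEST1, which passed the filter on low counts only through SCR. The median log2 change was -0.11 over the listed genes and 0.00028 over all tested genes. The lists were written with earlier results of these libraries known, and their counts are a description. The same shares stand beside the counts of each list below, and nothing is read from them.

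Melanosome assembly and import genes that passed the test went in both directions. Of 27 genes 24 were tested, 3 fell and 2 rose, with a median log2 change of -0.03. Over all tested genes 15.9% were called lower and 15.9% higher. The 3 not tested were SLC24A5 (4 counts over KD and 15 over SCR), GPR143 (2 and 0) and RAB32 (0 in all libraries). SLC7A11, the cystine importer whose substrate feeds the red-yellow pheomelanin, had 21.3, 17.6 and 22.8 CPM in KD, against 37.2, 58.6 and 50.1 CPM in SCR, and fell 2.38-fold (log2 change -1.25 ± 0.15, SE, adjusted p = 9.01e-05, edgeR). It lay closer to DCT in profile than OCA2 did, at rank 47. LYST, a regulator of lysosome-related organelle size that is mutated in Chediak-Higashi syndrome, fell 1.44-fold (adjusted p = 0.00338, edgeR). HPS4, a subunit of the complex that activates the melanosomal RAB proteins, fell 1.23-fold (adjusted p = 0.0481, edgeR), with overlapping groups, and lost the call under RLE scaling (adjusted p = 0.0502), in DESeq2 (0.0592) and without KD library 2 or 3 or SCR library 2 or 3 (0.110 to 0.207). BLOC1S4, a subunit of the BLOC-1 sorting complex, rose 1.40-fold (adjusted p = 0.0046, edgeR), and VPS33A, a tethering subunit for lysosomal fusion, rose 1.29-fold (adjusted p = 0.0131, edgeR). The call of VPS33A was lost without KD library 1 or SCR library 2 or 3 (adjusted p = 0.0524 to 0.0903). TPCN2, a melanosomal channel, had a log2 change of 0.06 ± 0.12, BACE2, a protease that cuts PMEL, one of -0.16 ± 0.09, and CD63, a sorting protein for PMEL, one of 0.13 ± 0.08 (SE), and none of these passed the test.

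Of 7 melanosome transport genes 5 were tested and 1 was called, lower in KD, where 15.9% of all tested genes were called lower. MYRIP, which links RAB27A to myosin in the retina and in secretory cells, had 6.24, 5.27 and 5.11 CPM in KD, against 10.01, 11.7 and 13.1 CPM in SCR. Every KD library lay below every SCR library, and MYRIP fell 2.14-fold (adjusted p = 0.000202, edgeR). RAB27A itself, the small GTPase that holds melanosomes at the cell edge, had a log2 change of -0.02 ± 0.16, and MYO5A, the motor it uses in melanocytes, one of -0.19 ± 0.09 (SE), neither of which passed the test. MYO5A passed it with upper-quartile scaling (adjusted p = 0.0473). MLPH, the adaptor that joins RAB27A to MYO5A in melanocytes, had 0 counts over KD and 1 over SCR. The other gene not tested, MYO7A, had 2 counts over KD and 15 over SCR.

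The relatives of MITF did not pass the test, and its called targets outside pigment synthesis went in both directions. In the MiT/TFE family TFE3 had a log2 change of 0.08 ± 0.10 and TFEB one of -0.19 ± 0.29 (SE), neither passing the test, and TFEC had 0 counts in all libraries. Of 12 other MITF targets 10 were tested, 3 fell and 2 rose, with a median log2 change of -0.0012. The shares over all tested genes were 15.9% lower and 15.9% higher. TBX2, a T-box repressor, had 65.3, 59.99 and 59.3 CPM in KD, against 32.8, 28.0 and 30.3 CPM in SCR, and rose 2.02-fold (adjusted p = 2.22e-05, edgeR). HIF1A, the oxygen-regulated factor, rose 1.29-fold (adjusted p = 0.0120, edgeR), a call lost without KD library 1 or 3 or SCR library 2 (0.0584 to 0.0709). PPARGC1A, a coactivator of mitochondrial genes, fell 1.52-fold (adjusted p = 0.00749, edgeR), MET, the HGF receptor, fell 1.51-fold (adjusted p = 0.0107, edgeR, and 0.0507 without KD library 2), and TRPM1, a channel of melanocytes and retinal bipolar cells, fell 2.10-fold at 0.573 ± 0.188 CPM in KD and 1.24 ± 0.229 CPM in SCR (adjusted p = 0.0349, edgeR). DESeq2 did not call TRPM1 (adjusted p = 0.111), nor did edgeR without KD library 1 or 3 or any 1 of the SCR libraries (0.0528 to 0.162). TRPM1 had 4, 15 and 8 counts in KD and 23, 20 and 25 in SCR. The KD libraries alone would not have passed the filter on low counts, so its call is not read as evidence.

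The factors and receptors of melanocytes differed widely in level. PAX3, LEF1 and EDNRB had 0 counts in all libraries, and ADCY9 was highest, at 55.7 CPM in KD and 73.5 CPM in SCR. Of 14, 9 were tested and 1 was called, lower in KD, where 15.9% of all tested genes were called lower. ADCY9, an adenylate cyclase that makes the cAMP signal, fell 1.33-fold (adjusted p = 0.00979, edgeR, and 0.0504 without SCR library 3). KIT, the stem cell factor receptor, had a log2 change of -0.25 ± 0.19 and MC1R, the melanocortin receptor, one of 0.58 ± 0.36 (SE), and neither passed the test.

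Markers of the retinal pigment epithelium, the pigmented layer behind the photoreceptors, differed in response. Of 11 genes, which include PMEL, TYR and MITF, 8 were tested and 3 were called, all 3 lower in KD, with a median log2 change of -0.47. Both the count of 3 and the median include BEST1, whose call is not read as evidence. Over all tested genes 15.9% were called lower, and nothing is read from a count over so few. RPE65, the visual-cycle isomerase, had 10.5, 9.29 and 11.7 CPM in KD, against 17.6, 19.9 and 16.9 CPM in SCR, and fell 1.73-fold (adjusted p = 0.000494, edgeR). TRPM3, an ion channel, fell 1.37-fold (adjusted p = 0.00261, edgeR). BEST1, an anion channel, had 3, 4 and 5 counts in KD and 13, 19 and 14 in SCR. It passed the filter on low counts only through SCR, so its call is not read as evidence. It fell 3.08-fold at 0.287 ± 0.0935 CPM in KD and 0.824 ± 0.0915 CPM in SCR (adjusted p = 0.00942, edgeR). DESeq2 did not call it (adjusted p = 0.0619), nor did edgeR without SCR library 2 (0.0527). The summed level of the 11 markers ran from 145 to 152 CPM in KD and from 176 to 215 CPM in SCR, most of it TRPM3. The defining markers RLBP1 and LRAT had 1 and 2 counts over KD and 1 and 2 over SCR, and MERTK, a phagocytosis receptor, had a log2 change of 0.13 ± 0.12 (SE). The part of such cells in the fall of DCT was not tested.

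Of 5 factors that control eye pigment and eye field, 4 were tested and 2 were called, both lower in KD. Over all tested genes 15.9% were lower and 15.9% higher, and nothing is read from such small counts. OTX1 had a level of 1.44 ± 0.288 CPM in KD and 2.72 ± 0.289 CPM in SCR and fell 1.86-fold (adjusted p = 0.0141, edgeR). OTX2, which in mice is required for pigment-epithelium fate, fell 1.21-fold (adjusted p = 0.0202, edgeR). Of the 8 Group 3 markers, 5 fell and 1 rose, beside the same shares over all tested genes. OTX2 and NRL, a rod photoreceptor factor at 4.29 CPM in KD and 6.60 CPM in SCR, were among the 5, and the call of NRL was lost without KD library 3 or SCR library 2 or 3 (adjusted p = 0.0808 to 0.122). IMPG2, a photoreceptor matrix protein, fell 1.51-fold (adjusted p = 0.000414, edgeR), CRX 1.36-fold (0.0132) and NEUROD1, a neurogenic factor, 2.09-fold (3.26e-05), while GABRA5, a GABA receptor subunit, rose 1.33-fold (0.00384). LHX2, which acts early in eye formation, had a log2 change of -0.08 ± 0.12 (SE) and did not pass the test. Leaving out KD library 1 or 3 or SCR library 2 or 3 ended the call of OTX2 (adjusted p = 0.0620 to 0.107). Without KD library 3 or SCR library 2 that of OTX1 ended (adjusted p = 0.0710 and 0.0720), and without SCR library 3 that of CRX (0.0743).

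**Figure D3:**
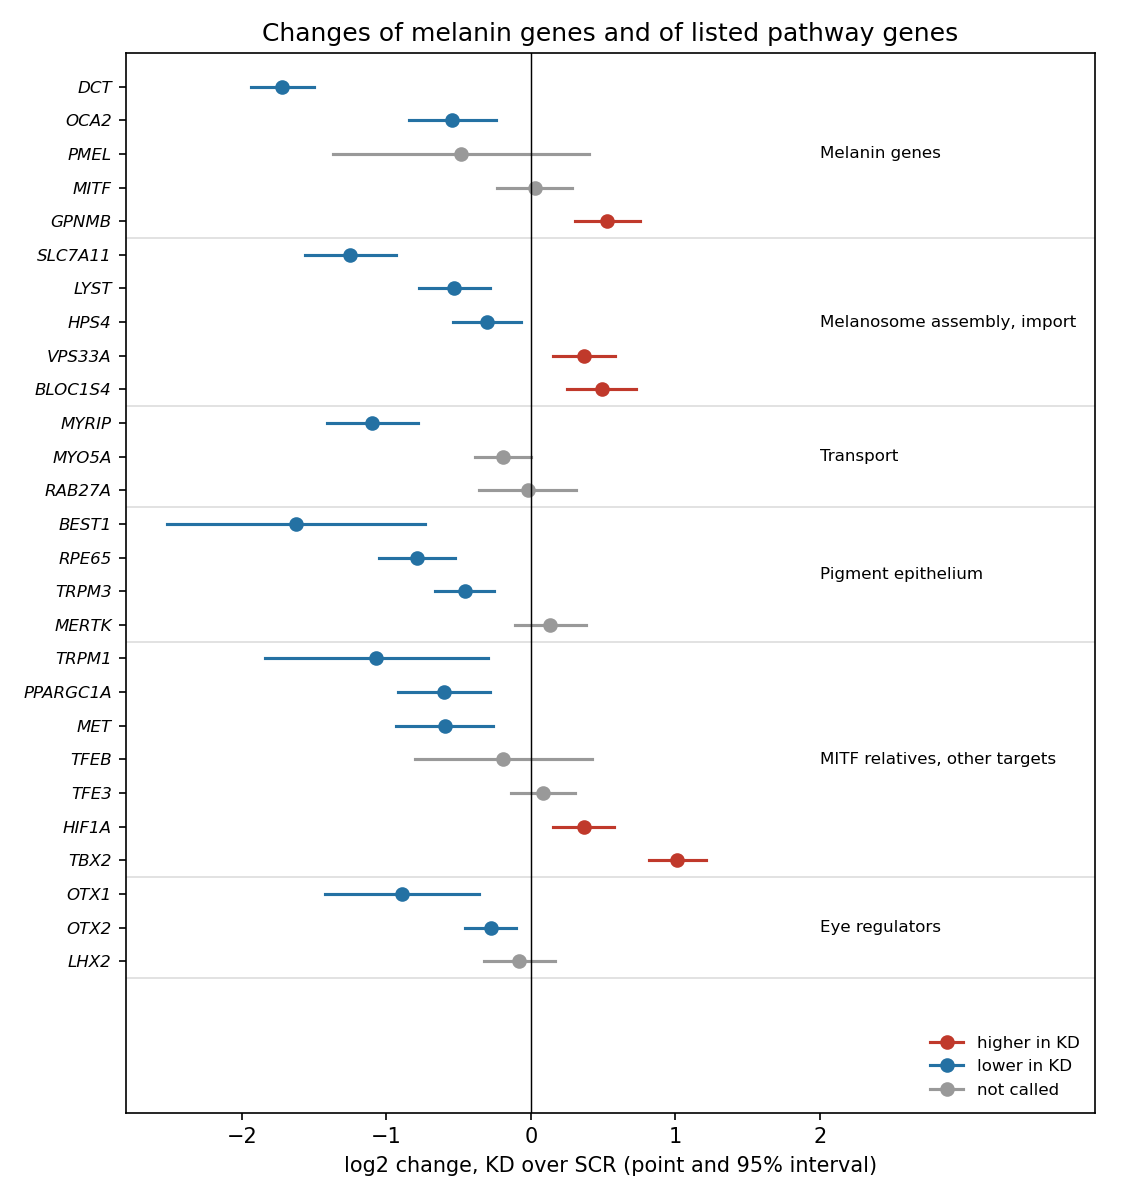
log2 change of KD over SCR (horizontal axis, point and 95% interval from edgeR) for melanin genes and listed pathway genes (rows, by group). Red genes were higher in KD, blue ones lower and grey ones not called, and DCT at -1.72 lies beyond SLC7A11 at -1.25 and MYRIP at -1.10, while TBX2 at 1.01 lies on the other side. TRPM1 and BEST1, in blue, passed the filter on low counts only through SCR, and their calls are not read as evidence.

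DCT lies on chromosome 13 from 94436808 to 94479682 on the minus strand (GENCODE 29, GRCh38), and no other annotated gene of that release overlaps it. Gaps are measured from this span. The other RefSeq start of DCT, at 94549406, lies nearer to TGDS, GPR180 and SOX21. The genes beside DCT differed in response. GPC6, a heparan sulfate proteoglycan gene 29.4 kb away on the plus strand, fell 1.28-fold (adjusted p = 0.0116, edgeR), a call lost without SCR library 3 (0.0572). On the other side TGDS, which lies 94.4 kb away, had a log2 change of -0.15 ± 0.10, and GPR180, 122 kb away, one of -0.09 ± 0.08 (SE), neither of which passed the test. SOX21, a SOX-family repressor of neural progenitors 229.9 kb away, had 22.8, 23.7 and 19.4 CPM in KD, against 36.1, 43.8 and 40.9 CPM in SCR, and fell 1.84-fold (adjusted p = 0.000108, edgeR). TGDS and GPR180 lie between DCT and SOX21.

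**Figure D4:**
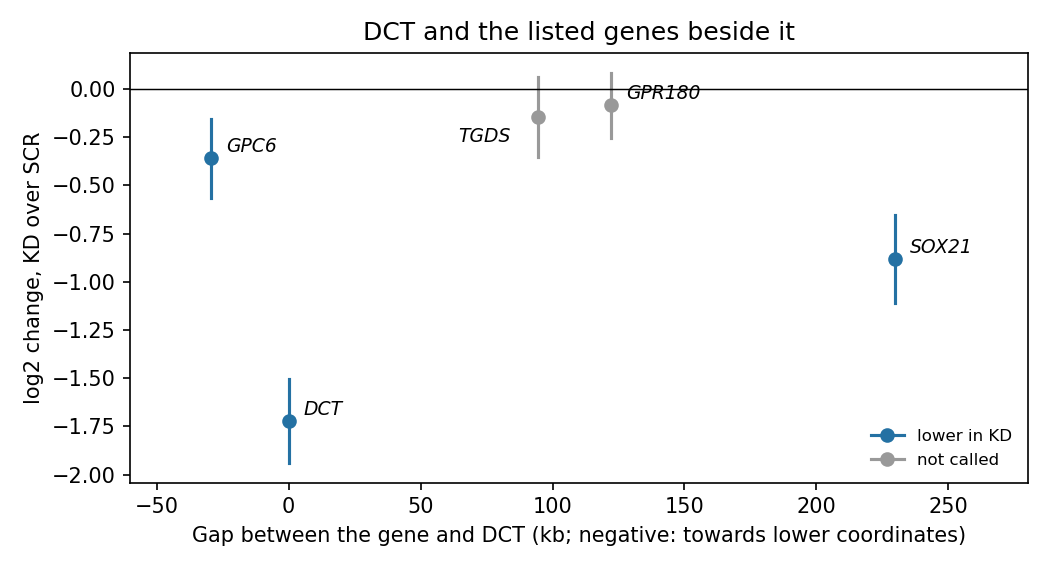
log2 change of KD over SCR (vertical axis, point and 95% interval) against the gap in kb between DCT and each listed neighbour (horizontal axis). DCT at -1.72 and SOX21 at -0.88 are lower in KD, GPC6 is lower by -0.36, and TGDS and GPR180 between DCT and SOX21 were not called.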

How the data were processed

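The 3 KD and 3 SCR libraries of D283 Med cells were made with the miRNeasy Micro and TruSeq Stranded mRNA kits, per the labels' protocols. The submitters' processing notes name Trim Galore 0.6.4, STAR 2.7.9a, RSEM and the build GRCh38.p13. The sources used here do not give the annotation, the RSEM version or the strand setting of the counting. The deposited values, whole numbers for 60708 genes, were taken to be expected counts that the authors had rounded. Here 44 pseudoautosomal Y copies were added to their X copies, and symbols were matched for 60463 of 60664 genes. GENCODE 29 gave coordinates and exon lengths, which may differ from those of the authors' annotation.

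The counts were fitted in edgeR 4.0.16 (R 4.3.3) with TMM scaling, filterByExpr and its quasi-likelihood F test, without covariates. Benjamini-Hochberg adjustment covered all 14673 tested genes, and a call needs an adjusted p under 0.05. Each SE was derived from the log2 change and its F value. The fit was also run on simulated counts with known changes. That simulation gave all genes the same spread, unlike these data, so no support for the calls is drawn from it. No 2 libraries of a group agreed within sampling noise (ratio of chi-square to its degrees of freedom 2.81 to 16.5), so none looks like 1 library deposited 2 times. This does not show that they are separate cultures. The 9 genes, the lists and the naming rule were chosen with earlier results of these data known, and 1 further gene was left out of the lists and is not reported here. Named with values were the 9 genes, up to 4 called genes of each list with the smallest adjusted p, further genes of the lists, and the 5 genes most like DCT. Alternatives were RLE and upper-quartile scaling, other filters on low counts, DESeq2 1.42.0, limma-voom 3.58.1, a replicate block and leaving out each library.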

Additional observations from a re-analysis of the deposited data

How the results depend on the processing

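DCT kept its direction in all 13 alternatives, with log2 changes from -1.80 to -1.65. In each, 3 of the 9 genes were called, of which 5 were tested in the main fit, where 31.7% of all tested genes were called. The genes were chosen on this contrast, so nothing is read from this count. Over all genes 4657 were called (2329 lower, 2328 higher), and 2704 to 5114 when single libraries were left out (1440 to 2510 lower, 1264 to 2604 higher). The lowest count, 2704, came without SCR library 2, and 2891 were called without SCR library 3 (1471 lower, 1420 higher). With upper-quartile scaling 4576 were called, 2803 lower and 1773 higher. The listed genes other than the 9 gave 24 calls, TRPM1 and BEST1 among them, against 16 to 27 when single libraries were left out. Among the genes given values, the sign turned for 5 that were not called. With upper-quartile scaling MITF was at -0.0326 and MYC at -0.0274. Leaving out single libraries gave -0.0298 to 0.126 for MITF, -0.0159 to 0.0935 for MYC, -0.0813 to 0.104 for RAB27A, -0.00203 to 0.177 for TFE3 and -0.0154 to 0.155 for MIF, and the cause was not tested. KD and SCR libraries share replicate numbers, but same-numbered libraries did not deviate together (correlations of 0.03, 0.10 and -0.03), so the numbers were not taken as pairs. With the replicate block 4742 genes were called and DCT was at -1.73. Depth limits TYR, TYRP1, SLC45A2 and MLANA, which could not be tested, and PMEL, which had 0.410 to 1.29 CPM.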

Other observations

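Enzymes that act on related substrates and the signals that govern pigment cells were measured beside the 9 genes. MIF and DDT, which tautomerise the D-form of dopachrome and share no ancestry with DCT, did not pass the test, with log2 changes of 0.06 ± 0.10 and 0.16 ± 0.10 (SE). DDT has a near-identical copy, DDTL, so its counts are uncertain. MIF averaged 348 ± 44.0 CPM in KD and 333 ± 20.6 CPM in SCR (SD, n = 3 each). Of 7 ligands and antagonists of melanocyte receptors 3 were tested and 0 were called by edgeR, with 0 at an unadjusted p under 0.05, and DESeq2 and limma-voom also called 0. Over all tested genes edgeR called 31.7%, and nothing is read from a count over so few. POMC, the precursor of melanocyte-stimulating hormone, and ASIP, its antagonist, had 0 counts in all 6 libraries.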
